A study of Mus musculus with 16 samples.

Results

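The 10 genes described here handle iron and heme: Hmox1 and Blvrb (heme breakdown), Fth1, Ftl1 and Ncoa4 (iron storage), Tfrc, Slc11a2 and Slc39a14 (iron uptake), Trf (the plasma iron carrier transferrin) and Slc40a1 (iron export). They were taken by symbol from the deposited table of gene counts, where 10 of 10 were found among 40472 genes, and 10 of 10 were among the 13614 genes with enough counts to be tested. The counts come from poly(A) RNA of whole kidneys of male C57BL/6 mice aged 12 weeks, with no genetic change given in the labels. There are 4 groups of 4 libraries. IRP is ischemia reperfusion, in which blood flow to the kidney is stopped and then restored, with PJ34, which inhibits the PARP enzymes (poly(ADP-ribose) polymerases). IRV is ischemia reperfusion with vehicle. NP is no such injury with PJ34, and NV is no such injury with vehicle. The study asked how PJ34 acts in the longer term after this injury. The labels give the replicates numbers but no animals, so every p-value speaks of the spread among libraries, which may be technical. The day of collection was not stated in the labels. In what follows IRP stands only for the injured PJ34 group.

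Cells take up iron bound to transferrin through the transferrin receptor, store it inside the hollow shell of ferritin, which is built of heavy and light chains, and release it through ferroportin. Heme oxygenase opens the heme ring and frees its iron, and biliverdin reductases then turn the pigment it leaves into bilirubin. In iron-poor cells, iron regulatory proteins bind a hairpin called the iron-responsive element, which blocks translation of the ferritin chains and ferroportin and protects the mRNA of the transferrin receptor from decay. In the kidney, tubule cells reabsorb filtered iron and heme proteins.

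Iron-responsive elements are shown because those that the search below found tie 4 of the 10 genes to a common control. They separate the receptor, which has them behind its coding part, from the ferritins and ferroportin, which have them before it. The search took an unpaired C, 5 bases, the loop CAGTGN with any last base but G, and 5 bases that pair with the first 5, G-T pairs allowed, on the sense strand of GENCODE M21 transcripts (an annotation of the mouse build GRCm38). Each element is printed with 6 bases on either side, 29 bases in all, with the loop in capitals.
Fth1, 5′ UTR: ttcctgcttcaaCAGTGCttgaacggaac
Ftl1, 5′ UTR: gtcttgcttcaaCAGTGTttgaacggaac
Slc40a1, 5′ UTR: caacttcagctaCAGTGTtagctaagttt
Tfrc, 3′ UTR, element 1: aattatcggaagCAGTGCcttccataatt
Tfrc, 3′ UTR, element 2: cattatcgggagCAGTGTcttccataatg
Tfrc, 3′ UTR, element 3: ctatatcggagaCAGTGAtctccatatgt
Tfrc, 3′ UTR, element 4: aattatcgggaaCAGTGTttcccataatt
Fth1 lies on chromosome 19, Ftl1 on chromosome 7, Slc40a1 on chromosome 1 and Tfrc on chromosome 16. The elements of Fth1 and Ftl1 were identical at 26 of 29 bases. In Fth1-201 the element ends 109 bases before the coding part, in Ftl1-201 147 bases before it, and in Tfrc-201 the 4 elements lie between positions 3315 and 3834 of a transcript of 4890 bases whose coding part ends at 2429. The other 6 genes held no match to this pattern in any protein-coding transcript, and 222 of 21901 protein-coding genes (1.014%) held one. The pattern asks for 5 unbroken pairs, so it misses any element with a bulge or mismatch there. The lack of a match, in Slc11a2 or another of the 6, does not show that a gene has no element. A match describes these letters and is not a measurement of binding.

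Total counts fell into a deep set of 6 libraries (all IRP libraries and IRV 3 and 4, 4963638 to 6169748 counts) and a shallow set of 10 (all NP and NV libraries and IRV 1 and 2, 973812 to 1659983). The sets also differed in counts on 1909 olfactory, vomeronasal, taste and trace-amine receptor genes, which averaged 0.127 to 0.268 CPM per gene in the deep libraries and 3.29 to 5.74 CPM in the shallow ones. CPM here is a gene's count scaled to a common library size by the TMM method. All IRP libraries are deep and all NP libraries are shallow, so in IRP against NP the set and the injury can be separated only through the IRV group, which holds both. Markers of kidney segments were present in every group, with no marker at 0 throughout a group, as the label says. Proximal tubule markers summed to 3749 to 7327 CPM in IRP, 3714 to 5287 in IRV, 8949 to 11128 in NP and 8351 to 10358 in NV, and 8 of 8 fell in each injury comparison. Macrophage markers summed to 455 to 1203 CPM in IRP, 610 to 1030 in IRV, 87.4 to 155 in NP and 93.7 to 119 in NV. These are bulk tissue values, in which fewer cells of a type and less RNA per cell cannot be told apart.

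Per kilobase of the principal transcript, the ferritin chains stood far above the rest in every group. Fth1 averaged 1608 ± 216 CPM per kilobase in IRP, 1406 ± 263 in IRV, 2382 ± 321 in NP and 2462 ± 244 in NV (SD, n = 4 each). Ftl1 came next, at 666 ± 51.6 in IRP, 569 ± 57.3 in IRV, 786 ± 140 in NP and 842 ± 79.9 in NV. No other gene of the 10 averaged above 37.5 CPM per kilobase in any group. Trf took rank 3 in IRP and IRV, at 30.5 ± 13.6 and 29 ± 7.77 CPM per kilobase, and rank 8 in NP and 9 in NV, at 9.85 ± 2.34 and 6.93 ± 2.25. Ncoa4 took rank 3 in NP and NV, at 37.5 ± 2.46 and 34.5 ± 3.6. Tfrc took rank 9 in IRP and rank 8 in IRV, at 7.35 ± 0.757 and 9.11 ± 3.49, and rank 4 in NP and NV, at 21.7 ± 6.08 and 18.9 ± 1.78. Slc39a14 was last in all 4 groups, at 5.54 ± 0.451, 5.73 ± 0.265, 6.32 ± 2.04 and 6.40 ± 0.368 in IRP, IRV, NP and NV. In IRP and IRV, the neighbours Trf and Ncoa4 differed by less than the larger of their SDs, as did Slc40a1 and Slc11a2, and Slc11a2 and Hmox1. In IRV so did each pair of neighbours from Hmox1 through Tfrc and Blvrb to Slc39a14. In NP this held for each pair from Slc11a2 through Slc40a1 and Hmox1 to Trf, and for Blvrb and Slc39a14. In NV it held from Tfrc through Slc11a2 to Hmox1, and from Slc40a1 through Blvrb and Trf to Slc39a14. These ranks are therefore not settled.

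**Figure D1:**
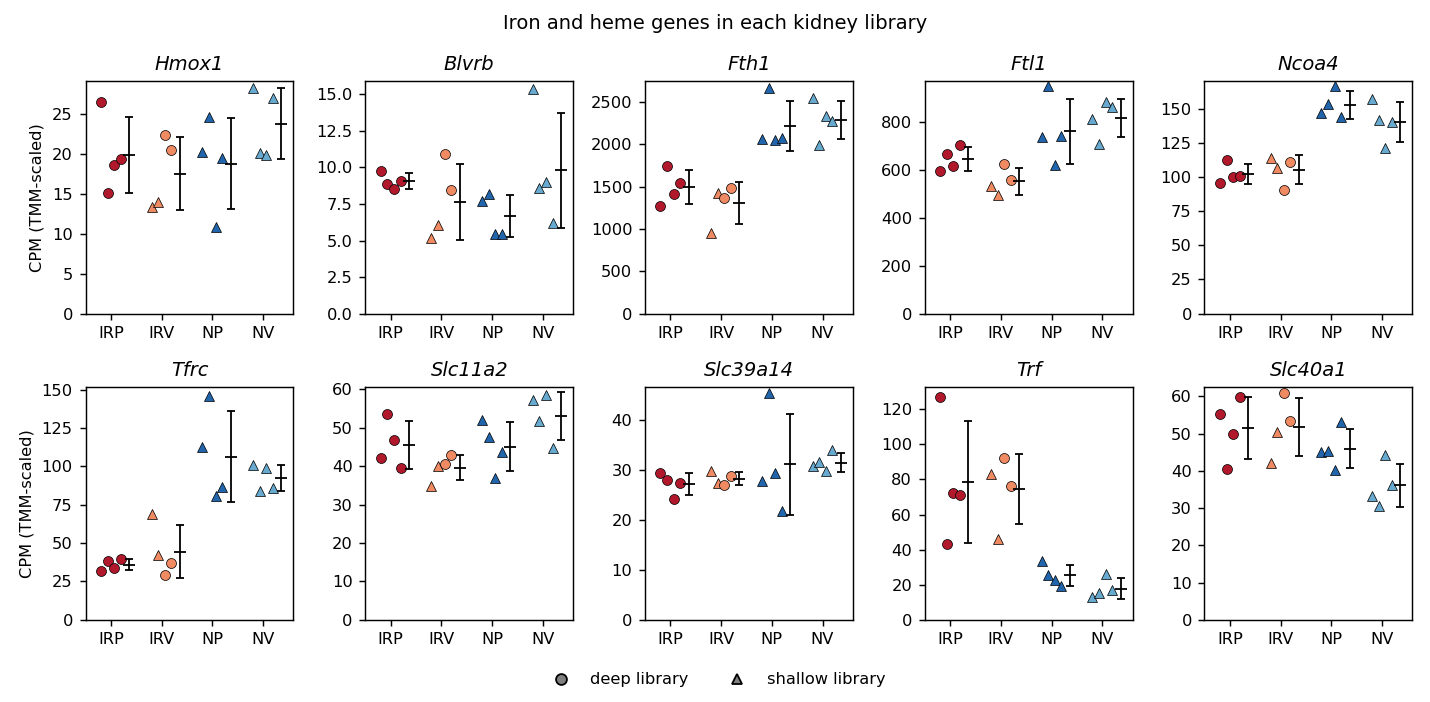
CPM after TMM scaling (vertical axes, each starting at 0) of the 10 genes in the IRP, IRV, NP and NV libraries, left to right in each panel, with circles for deep and triangles for shallow libraries and the bar beside them giving the mean and SD (n = 4). Tfrc lies at 29.5 to 68.9 CPM in the injured libraries and at 80.5 to 146 CPM in the others, and Trf at 43.5 to 127 CPM and 12.8 to 33.6 CPM.

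In kidneys with ischemia reperfusion and vehicle, Trf and Slc40a1 rose and Tfrc, Fth1, Ftl1, Ncoa4 and Slc11a2 fell. Thus 2 of the 10 genes rose and 5 fell in IRV against NV (edgeR quasi-likelihood test, Benjamini-Hochberg adjusted p under 0.05), and 3, namely Hmox1, Blvrb and Slc39a14, did not pass. Over all tested genes 27% were called, 15.9% higher and 11.1% lower. The groups did not overlap for 6 of the 10, against 26.9% of all genes. In IRP against NP, Trf rose and Tfrc, Fth1 and Ncoa4 fell, so 1 rose, 3 fell and 6 did not pass, against 43.6% of all genes called, 19.6% higher and 24% lower. Here the groups did not overlap for 5 of the 10, against 40.8% of all genes. The median log2 change of the 10 was -0.38 in IRV against NV, where that of all genes was -0.03, and -0.10 in IRP against NP, where that of all genes was -0.01. Counts scaled by library totals alone moved the median of all genes to 0.49 and 0.57. A change of scaling shifts all genes by nearly the same amount. Signs relative to the median are therefore kept by construction and test nothing. The signs of single genes that turned with that scaling are listed at the end. With the library set as a covariate, 4 of the 10 stayed past the threshold in IRV against NV (Trf, Tfrc, Fth1 and Ftl1), against 14.1% of all genes. In IRP against NP 0 of the 10 did, where all genes called went down to 450 (3.31%).

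**Figure D2:**
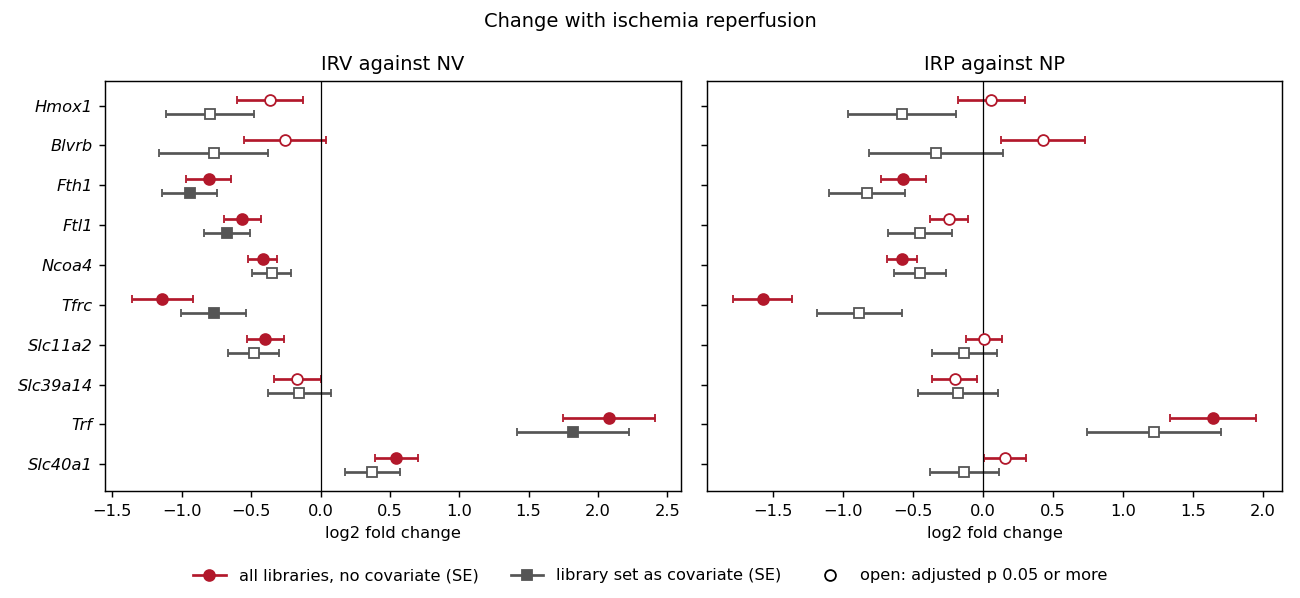
Log2 fold change (horizontal axis) of the 10 genes in IRV against NV (left) and IRP against NP (right), with SE bars, from the fit without a covariate (red circles) and after adding the set as a covariate (grey squares), filled where the adjusted p is under 0.05. Trf lies right of 0 and Tfrc, Fth1, Ftl1 and Ncoa4 left of 0 in both fits and both panels.

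Heme breakdown was measured through Hmox1, the inducible heme oxygenase, and Blvrb, which reduces biliverdin IXβ and flavins. Hmox1 had 26.5, 15, 18.6 and 19.3 CPM in IRP, 13.4, 14.0, 22.3 and 20.5 in IRV, 20.2, 24.5, 10.9 and 19.5 in NP, and 28.2, 20.1, 19.8 and 27.0 in NV. The 4 groups overlap, and the 2 shallow IRV libraries are the low ones of that group. Hmox1 had a log2 change of -0.36 ± 0.24 (SE; adjusted p = 0.27 by edgeR) in IRV against NV and 0.06 ± 0.24 (adjusted p = 0.858) in IRP against NP, with 95% intervals of -0.87 to 0.14 and -0.44 to 0.56. Once the library set was a covariate, its change was -0.80 ± 0.32 (adjusted p = 0.103 by edgeR) in IRV against NV and -0.58 ± 0.39 (adjusted p = 0.47) in IRP against NP. In these libraries, then, no rise of this stress-induced gene was called in either comparison under any setting run. Blvrb had 9.79, 8.88, 8.52 and 9.10 CPM in IRP, 5.14, 6.08, 10.9 and 8.44 in IRV, 7.69, 8.18, 5.44 and 5.47 in NP, and 15.4, 8.61, 9.0 and 6.18 in NV. In the shallow libraries this rests on 5 to 18 counts, close to the 3.29 to 5.74 CPM that the receptor genes averaged there. Its log2 change was -0.26 ± 0.29 (adjusted p = 0.771 by edgeR) in IRV against NV and 0.43 ± 0.30 (adjusted p = 0.263) in IRP against NP. All 4 IRP libraries lay above all 4 NP libraries for Blvrb, but that direction did not hold with the library set as a covariate (-0.33 ± 0.48). The change in IRP against NP was called with library totals alone (1.02, adjusted p = 0.0152 by edgeR) and without a filter on low counts (0.86, adjusted p = 0.0443).

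Of the 3 storage genes among the 10, Fth1 and Ncoa4 fell in both injury comparisons and Ftl1 fell in IRV against NV only. These calls were lost without a filter on low counts. IRV against NV then gave -0.50 for Fth1, -0.26 for Ftl1 and -0.12 for Ncoa4. IRP against NP then gave -0.13 for Fth1 and -0.14 for Ncoa4. Fth1, the ferritin heavy chain that oxidises iron on entry, had 1273, 1744, 1411 and 1546 CPM in IRP, 948, 1429, 1359 and 1488 in IRV, 2062, 2659, 2054 and 2074 in NP, and 2542, 1993, 2338 and 2276 in NV. Every injured library lay below every uninjured one, with IRV 1 the lowest of all and NP 2 the highest. Fth1 fell by 0.81 ± 0.16 on the log2 scale in IRV against NV (adjusted p = 0.00151 by edgeR) and by 0.57 ± 0.16 in IRP against NP (adjusted p = 0.0087). With the library set as a covariate the change was -0.94 ± 0.20 (adjusted p = 0.0044 by edgeR) in IRV against NV and -0.83 ± 0.27 (adjusted p = 0.101) in IRP against NP, while counts scaled by library totals alone gave -0.30 in IRV against NV and 0.0026, with the sign turned, in IRP against NP, neither called.

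Ftl1, the light chain that helps the iron core to form, had 593, 665, 615 and 704 CPM in IRP, 531, 492, 624 and 556 in IRV, 736, 946, 621 and 739 in NP, and 810.5, 708, 881 and 861 in NV. All IRV libraries lay below all NV libraries, whereas IRP and NP overlapped, with NP 3 inside the range of IRP. Ftl1 fell by 0.56 ± 0.13 in IRV against NV (adjusted p = 0.00512 by edgeR), and its change in IRP against NP was -0.24 ± 0.13 (adjusted p = 0.158), which passed only without NP 3 (-0.40, adjusted p = 0.0341). Counts scaled by library totals alone gave -0.05 in IRV against NV and a positive 0.34 in IRP against NP, neither called. Reads of ferritin genes can be shared with processed copies. Copies of Ftl1 (Ftl1-ps1 with 1113 counts and Ftl1-ps2 with 337) held 2.37% to 8.89% of the Ftl1 and copy counts of a library, and 6 heavy chain copies held 29 counts over all libraries against 84807 for Fth1. Summing each gene with its copies changed no call for either chain.

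Ncoa4, the receptor that carries ferritin to the lysosome for iron release, had 95.2, 113, 100.3 and 101 CPM in IRP, 114, 106, 90.5 and 111 in IRV, 147, 153, 166 and 144 in NP, and 157, 142, 122 and 141 in NV. No injured library reached an uninjured one. Ncoa4 fell by 0.42 ± 0.11 in IRV against NV (adjusted p = 0.00819 by edgeR) and by 0.58 ± 0.11 in IRP against NP (adjusted p = 0.000497). With the library set as a covariate the changes were -0.35 ± 0.14 (adjusted p = 0.106 by edgeR) in IRV against NV and -0.45 ± 0.19 (adjusted p = 0.208) in IRP against NP, and library totals alone gave 0.08 and -0.00014, with the direction turned in IRV against NV.

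Of the 3 uptake genes among the 10, Tfrc had the widest change in both injury comparisons. Tfrc, the transferrin receptor through which cells take up transferrin-bound iron, had 32.1, 38.4, 33.5 and 39.8 CPM in IRP, 68.9, 42.5, 29.5 and 37.2 in IRV, 112, 146, 80.5 and 86.7 in NP, and 101, 84.2, 99.0 and 85.7 in NV. The lowest uninjured library stood above the highest injured one, which was IRV 1. Tfrc fell by 1.14 ± 0.22 on the log2 scale in IRV against NV (0.453-fold, adjusted p = 0.00118 by edgeR) and by 1.57 ± 0.21 in IRP against NP (0.336-fold, adjusted p = 5.37e-05). The shallow IRV libraries alone gave -0.79 ± 0.20 against NV (adjusted p = 0.0159 by edgeR) and the deep ones -1.43 ± 0.14 (adjusted p = 8.2e-07), both called. All NV libraries are shallow, so the value for the deep ones cannot separate the set from injury. That setting was added after seeing the data. In IRP against NP the change with the set as a covariate was -0.88 ± 0.30 (adjusted p = 0.118 by edgeR).

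Slc11a2, the divalent metal transporter that moves iron out of endosomes, had 42.2, 53.6, 46.7 and 39.6 CPM in IRP, 34.9, 40.1, 40.6 and 42.8 in IRV, 51.9, 47.6, 37 and 43.7 in NP, and 57.3, 51.6, 58.5 and 44.8 in NV. IRV lay below NV without overlap and IRP overlapped NP throughout. Slc11a2 fell by 0.40 ± 0.13 in IRV against NV (adjusted p = 0.0344 by edgeR) and had a change of 0.01 ± 0.13 in IRP against NP (adjusted p = 0.966). In IRP against NP it was called as higher with library totals alone (0.58, adjusted p = 0.00424 by edgeR), where the median of all genes was 0.57, and without a filter (0.45, adjusted p = 0.0437). The call in IRV against NV was lost without any 1 of IRV 1, IRV 3, NV 1, NV 2 or NV 3 (adjusted p 0.0554 to 0.0642 by edgeR), with DESeq2 (adjusted p = 0.0557) and after adding the set as a covariate (adjusted p = 0.0886), and library totals alone turned the sign (0.12). Slc39a14, the zinc and iron transporter ZIP14, had 29.5, 28.1, 24.2 and 27.3 CPM in IRP, 29.8, 27.4, 27.0 and 28.8 in IRV, 27.9, 45.4, 29.4 and 21.9 in NP, and 30.8, 31.6, 29.7 and 34 in NV. Its level hardly varied within IRP, IRV and NV, and NP 2 alone stood well above the rest. The log2 change of Slc39a14 was -0.17 ± 0.17 (adjusted p = 0.473 by edgeR) in IRV against NV and -0.20 ± 0.16 (adjusted p = 0.333) in IRP against NP, and the IRP comparison passed only without NP 4 (-0.42, adjusted p = 0.0404).

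Trf, which encodes the iron carrier of plasma made mainly by the liver, showed the widest change of the 10 genes in IRV against NV. In IRP against NP the changes of Trf and Tfrc (-1.57 ± 0.21) differed in size by less than either SE. Which of them was wider there is not settled. Trf had 127, 43.5, 72.4 and 71.4 CPM in IRP, 83.3, 46.2, 92.3 and 76.2 in IRV, 33.6, 25.3, 22.8 and 19.5 in NP, and 12.8, 15.3, 26.1 and 17 in NV. All injured libraries stood above all uninjured ones, and the injured groups spread widely, with IRP 1 high and IRP 2 and IRV 2 low. Trf rose 4.22-fold in IRV against NV (log2 2.08 ± 0.33, adjusted p = 0.000269 by edgeR) and 3.12-fold in IRP against NP (log2 1.64 ± 0.31, adjusted p = 0.000616). Within the shallow libraries IRV against NV gave 1.80 ± 0.28 (adjusted p = 0.000621 by edgeR), and with the set as a covariate IRP against NP gave 1.22 ± 0.48 (adjusted p = 0.18). Hepatocyte markers summed to 14.8 to 43.1 CPM in IRP, 32 to 70.4 in IRV, 37 to 67.2 in NP and 55.5 to 77.4 in NV. Of these, 0 of 2 tested markers rose in either comparison, and 1 of 2 fell in IRP against NP. IRV 3, the highest IRV library for Trf, was also the highest of its group for the hepatocyte sum. Within IRP, however, IRP 2, the lowest for Trf, had the highest hepatocyte sum (43.1 CPM). IRP 1, the highest for Trf, had 19.9 CPM. Apoa1, a hepatocyte marker, had 0 to 5 counts in the IRP libraries and 1 to 21 in the IRV libraries. It was at 0 in every NP and NV library and had too few counts to be tested. It averaged 0.321 CPM in IRP and 1.25 CPM in IRV. All NP and NV libraries are shallow, so those zeros do not show absence. In IRP, IRV, NP and NV, Ttr averaged 15.7, 22.8, 39.1 and 47.0 CPM and Alb 6.23, 15.9, 10.8 and 12.6. Fgb averaged 3.43, 4.32, 4.19 and 4.92 CPM there, and Ahsg 0.337, 1.92, 0.390 and 0.450. Macrophage markers rose in 9 of 10 cases in each comparison, and fibroblast markers in 5 of 6. Fibroblast markers summed to 842 to 2255 CPM in IRP, 1197 to 1892 in IRV, 228 to 345 in NP and 128 to 319 in NV. The macrophage and fibroblast sums were highest in IRP 1 and lowest in IRP 2 within IRP. Within IRV they were highest in IRV 3 and lowest in IRV 2. These are the same libraries that were highest and lowest for Trf. Injured tubule markers rose in 7 of 7 cases in IRV against NV and in 6 of 7 in IRP against NP. Their sum was lowest in IRP 2 (733 CPM) and highest in IRP 4 (1190 CPM) within IRP. Within IRV it was lowest in IRV 2 (826 CPM) and highest in IRV 3 (1181 CPM). The part of any of these cell types in the level of Trf was not tested.

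Slc40a1, ferroportin, the known iron exporter of mammalian cells, had 55.3, 40.6, 49.9 and 59.9 CPM in IRP, 42.1, 50.4, 60.9 and 53.5 in IRV, 45.2, 45.4, 40.2 and 53.1 in NP, and 33.3, 30.6, 44.1 and 36.3 in NV. IRV and NV overlapped in 1 library on each side, IRV 1 and NV 3, and IRP and NP overlapped widely. Slc40a1 rose 1.46-fold in IRV against NV (log2 0.55 ± 0.16, adjusted p = 0.0156 by edgeR), and its change in IRP against NP was 0.16 ± 0.15 (adjusted p = 0.415). In IRP against NP it was called as higher with library totals alone (0.75, adjusted p = 0.00537 by edgeR) and without a filter (0.59, adjusted p = 0.0144). The call in IRV against NV was lost without any 1 of IRV 3, IRV 4, NV 1, NV 2 or NV 4 (adjusted p 0.0539 to 0.0995 by edgeR) and after adding the set as a covariate (0.37 ± 0.20, adjusted p = 0.239). Macrophages express ferroportin when they recycle iron, and the macrophage marker sums given above were higher in both injured groups; their part in Slc40a1 was not tested.

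**Figure D3:**
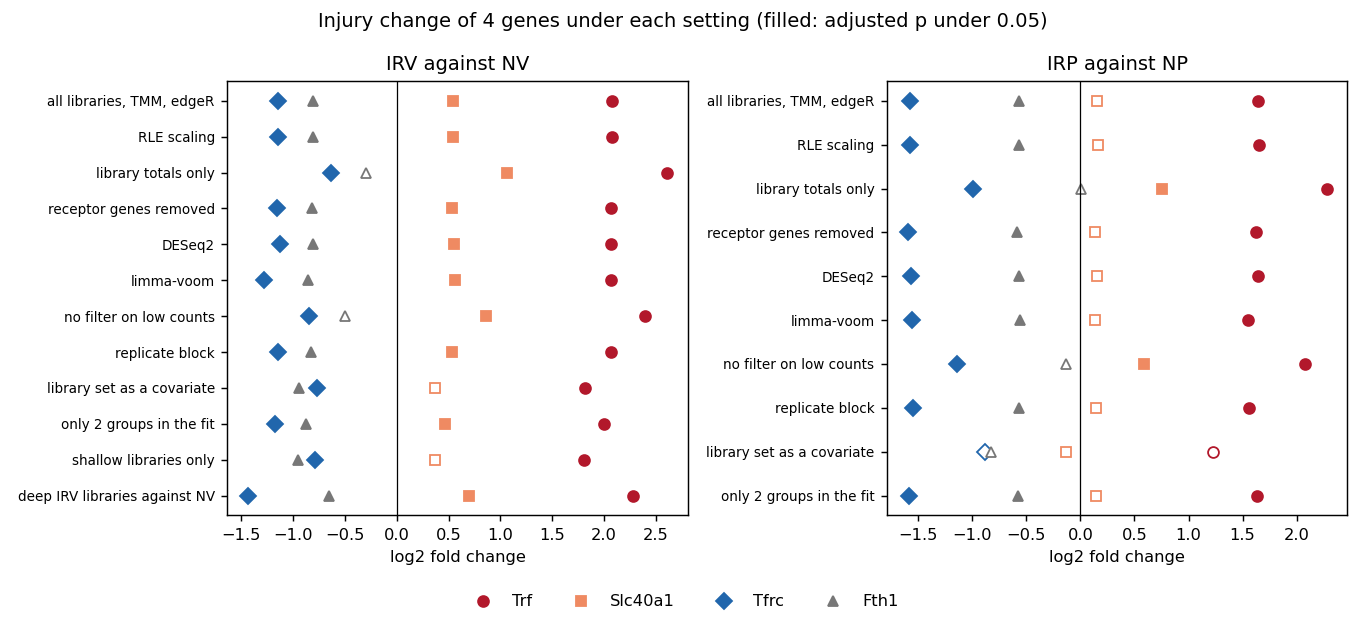
Log2 fold change (horizontal axis) of Trf (circles), Slc40a1 (squares), Tfrc (diamonds) and Fth1 (triangles) under each setting (rows), in IRV against NV (left) and IRP against NP (right), filled where the adjusted p is under 0.05. Trf and Tfrc stay on their side of 0 in every row, and in IRP against NP no symbol is filled in the row with the library set as a covariate.

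PJ34 in injured kidneys was read from IRP against IRV, and no difference in the 10 genes passed the test. With edgeR, 0 of the 10 and 0 of all 13614 genes were called (0%), with 1832 genes at an unadjusted p under 0.05, while DESeq2 called 1282 genes and 0 of the 10. The groups overlapped for all 10, against 3.42% of all genes that did not overlap. Log2 changes ran from -0.22 ± 0.21 for Tfrc to 0.22 ± 0.13 for Ftl1, which had the lowest adjusted p (0.577). Of the storage genes, Fth1 had a change of 0.19 ± 0.16 and Ncoa4 of -0.04 ± 0.10. Hmox1 had 0.10 ± 0.21 and Blvrb 0.15 ± 0.26. Slc11a2 had 0.18 ± 0.12, Slc39a14 -0.04 ± 0.15, Trf 0.07 ± 0.26 and Slc40a1 -0.04 ± 0.14. The 95% intervals reached down to -0.67 for Tfrc and up to 0.70 for Blvrb. Within the deep libraries, Tfrc had a change of 0.10 and Trf of -0.10, each opposite in sign to the values above.

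PJ34 in uninjured kidneys was read from NP against NV, where all libraries are shallow. edgeR called 0 of the 10 and 0 of all genes (0%), with 501 genes at an unadjusted p under 0.05, and DESeq2 called 4 genes and 0 of the 10. The groups overlapped for all 10, against 2.43% of all genes that did not. Of the 10, Slc40a1 had the lowest p before adjustment, with a change of 0.35 ± 0.17 (adjusted p = 1 by edgeR). Blvrb had -0.54 ± 0.33 and Hmox1 -0.32 ± 0.26. Fth1 had -0.05 ± 0.16, Ftl1 -0.10 ± 0.13 and Ncoa4 0.12 ± 0.11. Tfrc had 0.21 ± 0.21, Slc11a2 -0.23 ± 0.14, Slc39a14 -0.01 ± 0.18 and Trf 0.50 ± 0.38. None of these changes passed the threshold after adjustment over all tested genes.

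Whether the injury change differed between PJ34 and vehicle was tested as an interaction, the log2 change in IRP against NP minus that in IRV against NV. edgeR called 0 of the 10 and 0 of all genes (0%), with 1550 genes at an unadjusted p under 0.05, and DESeq2 called 22 genes and 0 of the 10. Slc11a2 had the lowest adjusted p of the 10 (0.41 ± 0.19, adjusted p = 0.417 by edgeR). Slc40a1 had -0.39 ± 0.22 and Ftl1 0.32 ± 0.19, so the calls of Slc40a1, Ftl1 and Slc11a2 in the vehicle comparison and not in the PJ34 comparison are not shown to differ between treatments. Tfrc had -0.43 ± 0.30, Trf -0.43 ± 0.46, Fth1 0.24 ± 0.23 and Ncoa4 -0.16 ± 0.15. Hmox1 had 0.43 ± 0.34, Blvrb 0.69 ± 0.42 and Slc39a14 -0.03 ± 0.23.

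Ratios of counts within a library do not depend on how libraries are scaled, and they are given as a description. Slc40a1 to Tfrc, export to uptake, was 1.72, 1.06, 1.49 and 1.51 in IRP, 0.612, 1.19, 2.06 and 1.44 in IRV, 0.402, 0.311, 0.500 and 0.613 in NP, and 0.331, 0.364, 0.445 and 0.423 in NV. Except for IRV 1, each injured library lay above 1 and above all uninjured ones, while IRV 1 fell within the range of NP. Trf to Tfrc ran from 1.13 to 3.95 in IRP, 1.09 to 3.13 in IRV, 0.173 to 0.299 in NP and 0.127 to 0.264 in NV, with no overlap between injured and uninjured libraries. Trf and Tfrc each already separated these libraries, in opposite directions, so their ratio had to separate them too and is no further result. The ferritin heavy to light chain ratio, Fth1 to Ftl1, was 2.15 to 2.62 in IRP, 1.78 to 2.90 in IRV, 2.80 to 3.31 in NP and 2.64 to 3.14 in NV. For this ratio IRP lay below NP without overlap, and IRV overlapped NV.

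**Figure D4:**
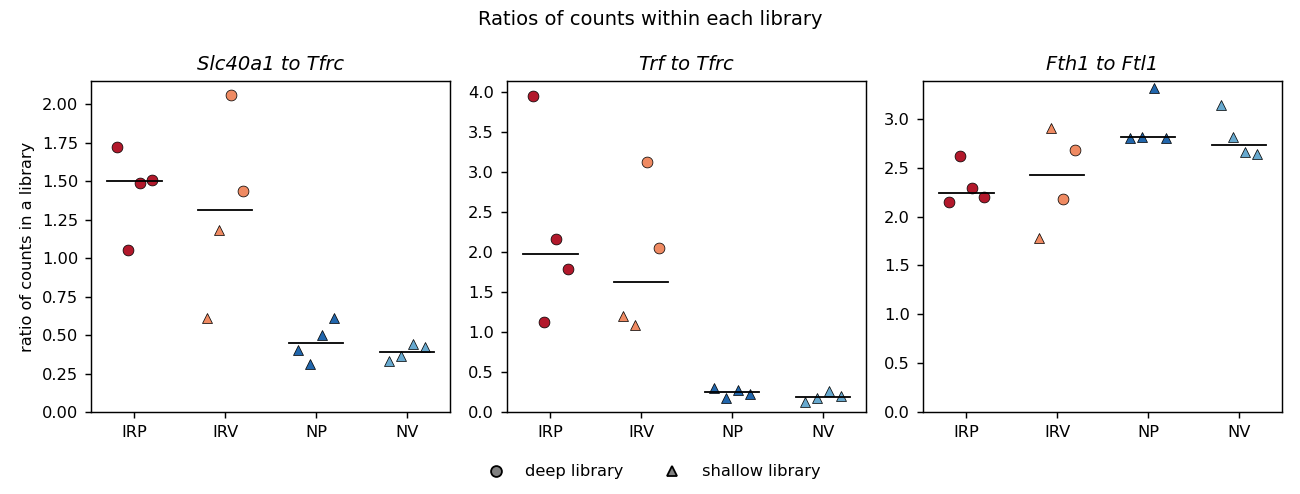
Ratio of counts in each library (vertical axes, each starting at 0) for Slc40a1 to Tfrc, Trf to Tfrc and Fth1 to Ftl1 in the IRP, IRV, NP and NV libraries, with circles for deep and triangles for shallow libraries and a line at the median. Trf to Tfrc lies at 1.09 or more in the injured libraries and at 0.299 or less in the others.

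A wider list of 71 further genes of iron and heme handling, chosen with earlier results of these data known, had 69 genes in the table and 56 tested. Of these, 6 rose and 12 fell in IRV against NV (10.7% and 21.4%, where 15.9% of all genes rose and 11.1% fell). In IRP against NP 6 rose and 14 fell (10.7% and 25%, where 19.6% of all genes rose and 24% fell), so that 35.7% of the list was called there against 43.6% of all genes. The median log2 change was -0.34 in IRV against NV, against -0.03 for all genes, and -0.21 in IRP against NP, against -0.01. With the library set as a covariate 3 rose and 10 fell in IRV against NV, where 14.1% of all genes were called (1080 higher, 835 lower). In IRP against NP 3 rose and 2 fell with that covariate, where 3.31% of all genes were called (343 higher, 107 lower). For each role, the 2 wider genes with the smallest p in IRV against NV are named below, whether or not they passed, and the counts for a role include its genes among the 10. The counts by role are to be read against those shares of all genes, and several lie near them, such as the 4 of 17 mitochondrial genes that fell in IRP against NP (23.5%). Ftmt and Hamp2 were not analysed here.

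Of the exporting genes, 3 of 3 tested rose in IRV against NV and 1 of 3 in IRP against NP. Cp, ceruloplasmin, which oxidises iron as it leaves cells, had 345 ± 145 CPM in IRP, 400.4 ± 89.7 in IRV, 69.1 ± 5.20 in NP and 59.0 ± 9.50 in NV (SD, n = 4 each), a log2 change of 2.76 ± 0.27 in IRV against NV and 2.32 ± 0.26 in IRP against NP. Heph, the membrane ferroxidase hephaestin, rose in IRV against NV (0.58 ± 0.21, adjusted p = 0.0483 by edgeR) and had 0.30 ± 0.20 (adjusted p = 0.225) in IRP against NP. Only Cp of the 3 kept its call with the library set as a covariate, in both comparisons.

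Among carriers of iron and heme, 3 of 10 tested rose and 1 fell in IRV against NV, and 3 rose and 2 fell in IRP against NP. Lcn2, which binds iron-loaded siderophores and marks tubule injury, had a log2 change of 3.95 ± 0.52 in IRV against NV and 4.08 ± 0.53 in IRP against NP. Lrp1, a receptor that takes up heme bound to hemopexin among many other ligands, rose by 1.89 ± 0.27 and 1.98 ± 0.27 in the same comparisons, and both genes kept their calls with the library set as a covariate. Lcn2 had only 0 to 5 counts per library in NV and 1 to 6 in NP, with means of 2.93 CPM. Those means lie below the 3.29 to 5.74 CPM that the receptor genes averaged in the shallow libraries, so the size of its change is uncertain. Among the uptake genes, 0 of 10 rose and 4 fell in IRV against NV, and 1 rose and 4 fell in IRP against NP. Slc39a8, the zinc and iron transporter ZIP8, fell by 1.16 ± 0.26 in IRV against NV and by 0.83 ± 0.25 in IRP against NP. Steap2, a metalloreductase, fell by 0.55 ± 0.13 and by 0.42 ± 0.12 in these comparisons. Both kept the call with the library set as a covariate in IRV against NV (adjusted p = 0.032 and 0.0452 by edgeR), and neither did in IRP against NP.

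In heme breakdown, 0 of 5 rose and 1 fell in each comparison. Por, the reductase that feeds electrons to heme oxygenases and cytochrome P450 enzymes, fell by 0.87 ± 0.18 in IRV against NV and by 0.64 ± 0.18 in IRP against NP, and kept both calls with the library set as a covariate. Blvra, the main biliverdin reductase, had -0.42 ± 0.18 (adjusted p = 0.0845 by edgeR) in IRV against NV and -0.37 ± 0.17 (adjusted p = 0.0833) in IRP against NP. In heme synthesis, 0 of 8 rose, 3 fell in IRV against NV and 4 fell in IRP against NP. Cpox, coproporphyrinogen oxidase, fell by 0.80 ± 0.14 in IRV against NV and by 0.83 ± 0.14 in IRP against NP. Fech, which inserts iron into the finished ring, fell by 0.56 ± 0.12 in IRV against NV and by 0.52 ± 0.11 in IRP against NP. Among the genes of mitochondrial iron and iron-sulfur clusters, 0 of 17 rose, 5 fell in IRV against NV and 4 fell in IRP against NP. Cisd1, an iron-sulfur protein of the outer mitochondrial membrane, fell by 1.03 ± 0.21 and by 0.81 ± 0.21 in the 2 comparisons. Bola3, an iron-sulfur cluster assembly factor, fell by 0.86 ± 0.19 and by 0.88 ± 0.18. Cpox, Fech and Cisd1 kept their calls with the library set as a covariate in IRV against NV, and Bola3 did not (adjusted p = 0.0572 by edgeR). All 8 proximal tubule markers fell beside these mitochondrial and heme genes, and their part in the falls was not tested.

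Of the 5 iron-sensing genes, 1 rose and 0 fell in each comparison. Nfe2l2, the oxidative stress factor NRF2 that drives ferritin and Hmox1 genes, rose by 0.65 ± 0.16 in IRV against NV (adjusted p = 0.00691 by edgeR) and by 0.82 ± 0.16 in IRP against NP (adjusted p = 0.000814), and lost both calls with the library set as a covariate. Aco1, iron regulatory protein 1, had -0.41 ± 0.18 (adjusted p = 0.104 by edgeR) in IRV against NV and -0.39 ± 0.18 (adjusted p = 0.0861) in IRP against NP. Of the storage genes beyond the 10, the iron chaperones Pcbp2 and Pcbp1 had 0.25 ± 0.10 and -0.03 ± 0.13 in IRV against NV and 0.18 ± 0.10 and -0.09 ± 0.13 in IRP against NP, none called. Of the systemic control genes, the hepcidin inducers Bmp6 and Hfe had 0.25 ± 0.16 and 0.01 ± 0.24 in IRV against NV and 0.17 ± 0.15 and 0.44 ± 0.23 in IRP against NP, and 0 of 2 passed in either comparison.

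**Figure D5:**
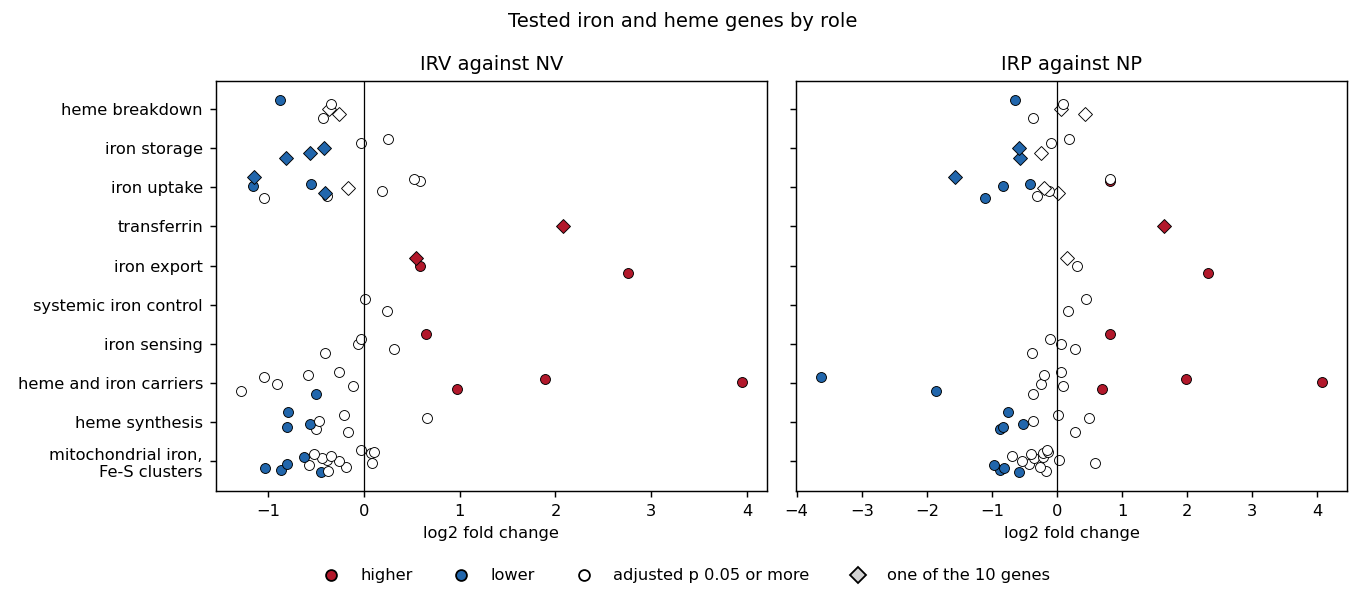
Log2 fold change (horizontal axis) of each tested iron and heme gene by role (rows), in IRV against NV (left) and IRP against NP (right), with diamonds for the 10 genes, circles for the wider list, red for higher, blue for lower and white for an adjusted p of 0.05 or more. In IRV against NV the 3 exporting genes are red, and the heme synthesis and mitochondrial rows hold no red symbol in either panel.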

How the data were processed

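The authors deposited whole-number expected counts (estimated counts per gene) for 16 libraries, not normalised. The submitters' processing notes name Salmon 1.3.0, DESeq2 1.30.1, Trim Galore 0.6.6, FastQC 0.11.3 and the build GRCm39. Per the labels' protocols a directional kit was used, with no statement on collapsing molecular identifiers. Symbols were matched by Ensembl ID without version for 40276 of 40472 genes.

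Genes passing filterByExpr at a minimum count of 10 (13614) were tested with edgeR 4.0.16 in R 4.3.3 (TMM scaling, quasi-likelihood, 16 libraries in 1 fit, group as the only term) in 5 comparisons, with Benjamini-Hochberg adjustment over all tested genes and a threshold of 0.05. A ± after a log2 change is an SE. Alternatives used DESeq2 1.42.0, limma-voom 3.58.1, other scalings, no filter, and the library set (deep above 3000000 counts, known from an earlier description) as a covariate. The fit was also run on simulated counts that shared a common expression profile apart from planted changes. That run does not show how the fit handles the difference between the deep and shallow sets. Within groups, all pairs of libraries differed by more than sampling noise (lowest chi-square per degree of freedom 1.83).

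The 10 genes, the wider and marker lists and the naming rule (all 10, and per role the 2 wider genes with the smallest p in IRV against NV) were chosen with earlier results of these data known. Ratios and the library comparisons of marker sums were chosen after their values were seen. Lengths and elements come from the longest principal protein-coding transcript with a curated RefSeq match in GENCODE M21. That annotation belongs to an older build, so no genome coordinates are given.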

Additional observations from a re-analysis of the deposited data

Results flagged for a closer look

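Among 40 checks of 1 gene in 1 group of 4 libraries, 1 library stood far from the others of its group, and chance gives about 1 in 20 such checks. Fth1 had 2659 CPM in NP 2, while NP 1, NP 3 and NP 4 had 2062, 2054 and 2074 CPM, so that the gap to the nearest of them made up 0.967 of the range of the group. NP 2 was also the highest of its group for Ftl1 (946 CPM), Tfrc (146 CPM), Slc39a14 (45.4 CPM) and Hmox1 (24.5 CPM). Erythrocyte markers summed to 405 CPM in NP 2 and to 178, 201 and 245 CPM in NP 1, NP 3 and NP 4, and their part in the level of Fth1 was not tested. Without NP 2, Fth1 had a log2 change of -0.45 in IRP against NP and an adjusted p of 0.0396 by edgeR.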

How the results depend on the processing

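The direction and call of Trf and Tfrc in IRV against NV held under every setting run. Of the 10 genes, 7 were called in IRV against NV, against 3 with library totals alone, 3 without a filter, 4 with the library set as a covariate and 4 within the shallow libraries. In IRP against NP 4 were called, against 0 with the set as a covariate. Blvrb, Slc11a2 and Slc40a1, not called there, were called as higher with library totals alone (1.02, 0.58 and 0.75) and without a filter (0.86, 0.45 and 0.59). Fth1 and Ncoa4 lost their calls there under both of these settings. In IRV against NV, Fth1, Ftl1, Ncoa4 and Slc11a2 lost their calls under both. Of all genes, IRV against NV called 3673, against 5962 with library totals alone (5716 higher, 246 lower, where TMM gave 2162 and 1511), 1915 with the set as a covariate, 1729 within the shallow libraries and 6156 with the deep IRV libraries only, a setting added after seeing the data. limma-voom split its calls there into 1575 higher and 3324 lower. IRP against NP called 5935, against 16733 without a filter (40472 genes tested) and 450 with the set as a covariate; library totals alone split its calls into 7012 higher and 1778 lower. IRP against IRV called 0, against 422 with library totals alone, 1282 with DESeq2 and 1093 without a filter. NP against NV called 0, against 4 with DESeq2, 2 without a filter and 3 with only both groups in the fit. The interaction called 0, against 22 with DESeq2. Leaving out 1 library gave 0 to 1460 genes in IRP against IRV, 0 to 1 in NP against NV and 0 to 419 in the interaction.

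Signs turned as follows, in log2 changes of which none was called. With library totals alone, IRV against NV gave 0.17 for Hmox1, 0.30 for Blvrb, 0.082 for Ncoa4, 0.12 for Slc11a2 and 0.36 for Slc39a14; IRP against NP gave 0.0026 for Fth1, 0.34 for Ftl1 and 0.39 for Slc39a14; IRP against IRV gave 0.044 for Ncoa4, 0.028 for Slc39a14 and 0.049 for Slc40a1; and the interaction of Slc39a14 was 0.033. Without a filter, IRV against NV gave 0.095 for Blvrb and 0.15 for Slc39a14, IRP against NP gave 0.19 for Ftl1 and 0.24 for Slc39a14, IRP against IRV gave 0.092 for Ncoa4, 0.065 for Slc39a14 and 0.072 for Slc40a1, and the interaction of Slc39a14 was 0.085. With the set as a covariate, IRP against NP gave -0.58 for Hmox1, -0.33 for Blvrb, -0.13 for Slc11a2 and -0.13 for Slc40a1, and IRP against IRV gave -0.095 for Hmox1, -0.090 for Blvrb, 0.020 for Ncoa4, 0.10 for Tfrc and -0.093 for Trf. Within the deep libraries IRP against IRV gave -0.099 for Hmox1, -0.091 for Blvrb, 0.018 for Ncoa4, 0.10 for Tfrc and -0.10 for Trf. With limma-voom IRP against IRV gave -0.0016 for Hmox1, -0.0073 for Blvrb and -0.0053 for Trf, IRP against NP gave -0.0078 for Slc11a2, and the interaction of Slc39a14 was 0.012. Slc11a2 in IRP against NP was -0.011 with receptor genes removed and -0.0027 with only both groups in the fit. Blvrb was 0.020 with the deep IRV libraries against NV. The cause of these turns was not tested.

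Leaving out 1 library turned signs within these ranges: Fth1 -0.15 to 0.0098 and Slc39a14 -0.27 to 0.14 in NP against NV; Hmox1 -0.18 to 0.23, Slc11a2 -0.16 to 0.059 and Slc39a14 -0.42 to 0.074 in IRP against NP; Hmox1 -0.061 to 0.21, Slc39a14 -0.089 to 0.0025, Slc40a1 -0.12 to 0.040, Tfrc -0.42 to 0.0088 and Trf -0.26 to 0.24 in IRP against IRV; and Slc39a14 -0.18 to 0.24 in the interaction. Whether the replicate numbers pair the libraries was not settled: 5 of 24 same-numbered pairs had correlated deviations above 0.1 (range -0.23 to 0.26). Pairs with different numbers were not compared, so these values have no reference. With the replicate number as a block, IRV against NV called 3675 genes and 6 of the 10, since Slc11a2 (-0.39, adjusted p = 0.051 by edgeR) lost its call, and IRP against NP called 5805 genes. Depth limits Blvrb most, with 5 to 18 counts per shallow library.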
